A study of Homo sapiens with 8 samples.

Results

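The genes described here are 9 tumour suppressors of mesothelioma, BAP1, NF2, CDKN2A, CDKN2B, MTAP, SETD2, LATS1, LATS2 and PBRM1, taken by symbol from a deposited table of 20323 genes. The symbols stood on 10 rows, because MTAP appeared on 2. Messages of LATS1, LATS2, NF2, BAP1, SETD2 and PBRM1 were present in all 8 libraries and were tested. CDKN2A and CDKN2B had 0 counts in every library, and MTAP had 1 count in 1 library, so these 3 genes were not tested.

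RNA was sequenced from H2452, an established human cell line of a pleural mesothelioma of the biphasic type, whose genotype the labels give as wt. Cells were kept for 48 h with 20 nM DPT (deoxypodophyllotoxin, a plant lignan that binds tubulin) or with DMSO, the solvent, at no more than 0.01%. There were 4 libraries per group, described in the series design as biological replicates. Nothing in the labels pairs a DPT library with a DMSO library or gives a culture day. All values come from 1 cell line, and no other line or normal mesothelium was analysed here.

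Library totals ran from 14964432 to 17205391 counts. On the first principal component 2 libraries, DMSO replicate 3 and DPT replicate 2, lay far from the rest, at 40.76 and 29.26 against -25.6 to -1.02. The members and the gene lists are therefore given from all 8 libraries, with a term for this pair in the model, and from the 6 other libraries. Among 15 mesothelial and epithelioid markers 14 were tested and ITLN1 was at 0. Between treatments 2 were called higher and 2 lower, and 4 and 7 both with the term and in the 6 libraries. Of all tested genes, 5.68% were called higher and 5.29% lower (edgeR adjusted p under 0.05). With the term these shares were 16.9% and 17.0%, and in the 6 libraries 17.0% and 17.1%. In DMSO, MSLN, CALB2 and WT1 averaged 16.3, 9.49 and 8.17 CPM (counts scaled to library size). PTPRC, the pan-leukocyte marker, had 3 to 9 counts per library, and none of 6 lung epithelial markers had enough counts to test. The summed level of 7 leukocyte markers, 91.5 to 131 CPM in DMSO and 94.4 to 146 in DPT, was nearly all CD68 (82.9 to 128 CPM) and CD14 (5.39 to 26.3 CPM), and each of the others was at 1.2 CPM or less. The sum of 6 endothelial markers was 1.81 to 5.34 CPM in DMSO and 3.66 to 9.45 in DPT. Of 3 tested, 1 was called with all 8 libraries, KDR, at means of 0.415 and 2.54 CPM (edgeR adjusted p = 0.0257). That call was lost without any 1 of the 6 libraries outside the pair (0.0555 to 0.0694). PECAM1 averaged 2.22 and 2.41 CPM and CDH5 0.77 and 1.46 CPM. With the term and in the 6 libraries 2 were called higher. In bulk RNA, fewer cells of a type and less RNA per cell cannot be told apart.

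In mesothelioma these genes are lost by deletion or mutation more often than most others. CDKN2A encodes p16INK4a and, from another reading frame, p14ARF. Its neighbour CDKN2B encodes p15INK4b, and p16 and p15 hold back the kinases CDK4 and CDK6, while p14ARF restrains MDM2. MTAP, which recycles methylthioadenosine to methionine, lies beside them on 9p and is often deleted together with CDKN2A. NF2 encodes merlin, which activates the Hippo kinases LATS1 and LATS2, and these phosphorylate the coactivators YAP and TAZ and keep them out of the nucleus. BAP1 removes ubiquitin from histone H2A, PBRM1 is a bromodomain subunit of the PBAF chromatin remodelling complex, and SETD2 places trimethylation on lysine 36 of histone H3. BAP1, PBRM1 and SETD2 lie on 3p.

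CDKN2A and CDKN2B are related genes, and estimated counting can divide reads between genes of similar sequence. CDKN2A and CDKN2B were both at 0, and so was their sum. Whether reads of either were assigned to another gene, such as one that overlaps them, was not tested.

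CDKN2A (ENSG00000147889, chromosome 9, 21967753 to 21995301) had 0 counts in DMSO replicates 1 to 4 and 0 in DPT replicates 1 to 4. CDKN2B (ENSG00000147883, 22002903 to 22009363) also had 0 counts in each of the 8 libraries. MTAP (ENSG00000099810, 21802543 to 21937651) had 0 counts in 7 libraries and 1 count in DPT replicate 4, or 0.043 FPKM (fragments divided by gene length and library size). The second row with the symbol MTAP, ENSG00000264545, had 0 counts throughout. GENCODE v29 names that identifier AL359922.1 and places it at 21802636 to 22032986, across MTAP, CDKN2A and CDKN2B together. None of these rows rose above the limit that a count of 0 allows, with either treatment.

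That limit, up to 3 counts in a library, was 0.175 to 0.203 CPM in these libraries, and it covers counting error only. Over all 8 libraries the table held 127897031 counts. Genes with no count in any library were common, at 3271 of the table (16.1%), and made up 15.4% of the 772 genes on chromosome 9, of which 64.2% were tested. A gene at 0 is thus not rare by itself, and these RNA counts do not measure DNA copy number or promoter methylation.

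Neighbours of the 3 genes were read in chromosome order. On the side of lower coordinates, KLHL9, an adaptor of a ubiquitin ligase (21329671 to 21335380), had 506, 576, 613 and 586 counts in DMSO replicates 1 to 4 and 522, 466, 545 and 536 in DPT. KLHL9 ends 467 kb before MTAP starts. On the other side, TUSC1 (25676389 to 25678440) had 106, 135, 131 and 100 counts in DMSO and 140, 119, 98 and 114 in DPT. Both neighbours were expressed in every library, and neither was called between treatments with all 8 libraries (edgeR adjusted p = 0.0878 and 0.745). KLHL9 was called lower by 0.24 log2 with the pair term (adjusted p = 0.0114) and by 0.20 in the 6 other libraries (adjusted p = 0.0486), and TUSC1 was not called there either.

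Between KLHL9 and TUSC1, over 4.34 Mb, the table has 13 rows, of which 11 were at 0 in all 8 libraries and 0 had enough counts to test. KLHL9 and TUSC1 are the nearest tested genes on either side of MTAP, CDKN2A and CDKN2B, named after their counts were seen. That 0 rows between them were tested follows from this choice of bounds. The 13 rows are those of MTAP, its second row included, CDKN2A, CDKN2B, 6 interferon genes, DMRTA1, ELAVL2 and IZUMO3. From the start of MTAP to the end of CDKN2B is 207 kb. IFNE, an epithelial interferon and the neighbour nearest to MTAP among the table's genes, had 0 counts, as had DMRTA1 (22446841 to 22455740), the next gene past CDKN2B. ELAVL2, an RNA-binding protein of neurons, had 1, 1, 4 and 0 counts in DMSO and 2, 2, 5 and 3 in DPT. Interferon genes, which most unstimulated cells keep silent, were at 0 on both sides of KLHL9, 14 of the 15 between MLLT3 and LRRC19 other than IFNB1. IFNB1, the interferon beta gene farther out, had 1, 6, 3 and 9 counts in DMSO and 40, 3, 28 and 30 in DPT, too few to be tested, and the low DPT value was that of DPT replicate 2, a library of the pair. In a wider list of 30 genes of 9p, 13 were tested and 0 called, with 1 higher and 3 lower at an unadjusted p under 0.05 and 1 and 0 by DESeq2. With the pair term 2 were higher and 3 lower, and in the 6 other libraries 1 and 2, where 34.0% and 34.1% of all tested genes were called in either direction.

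**Figure D1:**
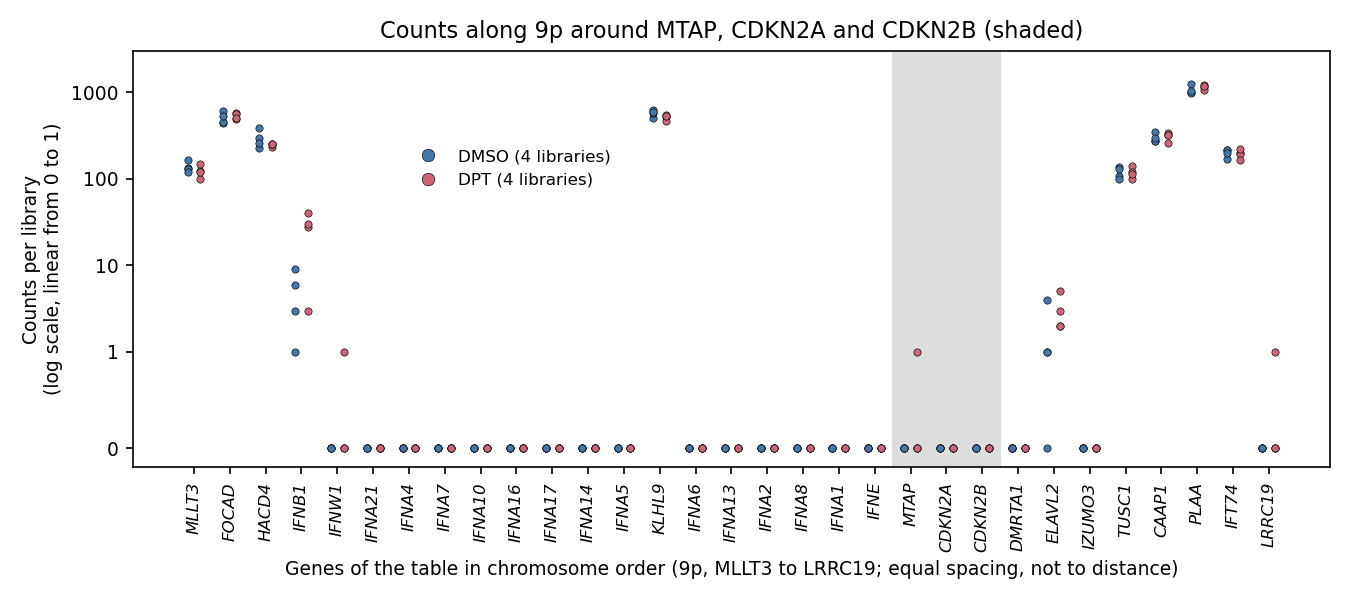
Counts per library (vertical axis, log scale, linear from 0 to 1) of the genes of the table from MLLT3 to LRRC19 on 9p, in chromosome order and at equal spacing. Each point is 1 library, blue for DMSO and red for DPT, and MTAP, CDKN2A and CDKN2B (shaded) sit at 0 but for 1 count of MTAP, between KLHL9 and TUSC1 with 466 to 613 and 98 to 140 counts.

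The other 6 tumour suppressors were expressed at middle to high levels. These counts do not show whether the genes are mutated or their proteins work. By mean FPKM over the 8 libraries, which allows comparison between genes, the order was LATS2 (20.8, range 17.6 to 24.0), NF2 (19.0, range 16.4 to 22.6), BAP1 (18.9, range 16.7 to 23.0), SETD2 (12.6, range 10.7 to 13.6), PBRM1 (11.3, range 9.78 to 13.4) and LATS1 (10.8, range 8.25 to 14.2). The only neighbours in this order whose ranges did not overlap were BAP1 and SETD2. LATS2, NF2 and BAP1 thus formed an upper group with no library under 16.4 FPKM, and SETD2, PBRM1 and LATS1 a lower group with no library over 14.2. Within each group the order was not resolved beyond the spread over libraries. LATS2 exceeded 80.2% of the genes of the table and LATS1, the lowest, 69.1%.

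The order differed little with treatment. In DMSO it was LATS2, BAP1, NF2, SETD2, PBRM1 and LATS1, and in DPT NF2 and BAP1 changed places, as did PBRM1 and LATS1. Both swaps were between neighbours with overlapping ranges.

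**Figure D2:**
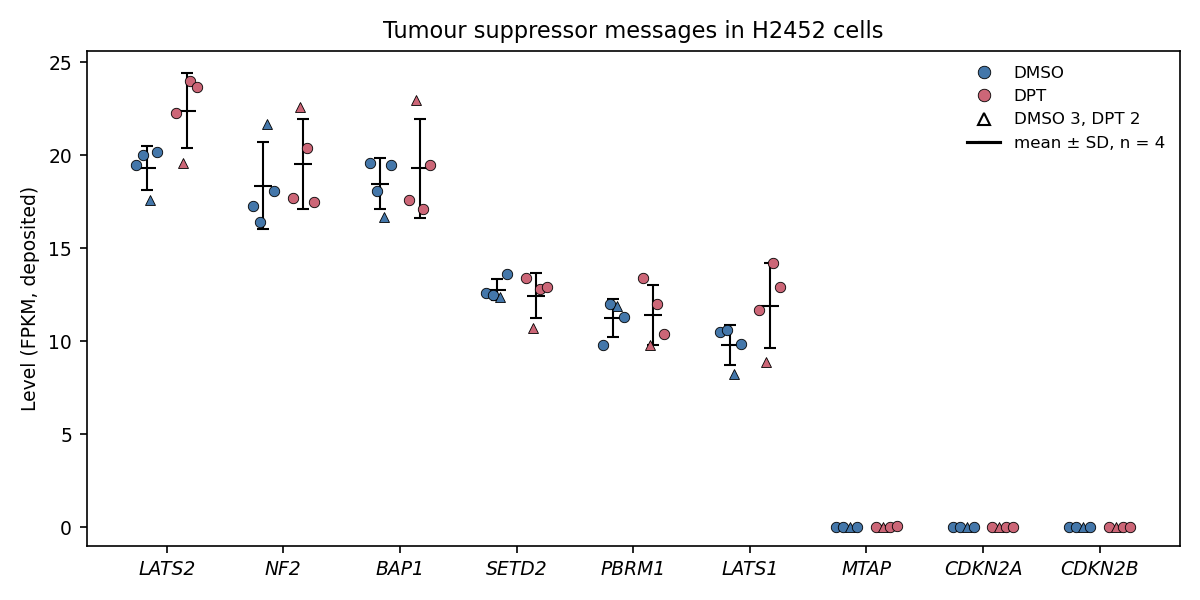
Level in FPKM (vertical axis) of the 9 tumour suppressor genes in each library, with the mean ± SD of each group (n = 4). Blue is DMSO, red is DPT and triangles are DMSO replicate 3 and DPT replicate 2; LATS2, NF2 and BAP1 lie above 16 FPKM, SETD2, PBRM1 and LATS1 below 15, and MTAP, CDKN2A and CDKN2B at 0 but for 0.043 FPKM of MTAP in DPT replicate 4.

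The series set out to find the genes whose expression differs between DPT and its solvent control. None of the 6 tested tumour suppressors was called higher or lower with all 8 libraries by edgeR's quasi-likelihood test (Benjamini-Hochberg adjusted p under 0.05 over 12648 genes). The background was 5.68% of tested genes called higher and 5.29% lower, 11.0% in all, so 0 of 6 lies near the background. At an unadjusted p under 0.05 the count was also 0, as it was by DESeq2 after adjustment, which called 8.03% of tested genes higher and 7.81% lower. Their median log2 fold change was 0.014 and the median size 0.038, against -0.0018 and 0.16 over all tested genes. In each of the 6 genes the CPM of the groups overlapped, where 18.2% of tested genes had groups that did not (9.5% with DPT higher, 8.73% with DPT lower). With the term for the pair, and in the 6 other libraries, LATS1 and LATS2 were called higher, against a background of 16.9% and 17.0% called higher, and no member was called lower.

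NF2 (ENSG00000186575, chromosome 22, 29603556 to 29698598) measured 72.6, 76.7, 88.4 and 78.5 CPM in DMSO replicates 1 to 4 and 70.1, 87.4, 78.6 and 67.0 CPM in DPT replicates 1 to 4. DMSO replicate 3 and DPT replicate 2 were the highest of their groups, and the groups overlapped over most of their range. The means were 79.1 ± 6.7 and 75.8 ± 9.2 CPM (SD, n = 4), a log2 fold change of -0.061 (SE 0.097, edgeR adjusted p = 0.745). Its 95% confidence interval ran from a fall of 17.6% to a rise of 11.4% (-17.6 to 11.4), so this fit does not settle whether NF2 changed within that range. With the pair term the change was -0.062 (SE 0.056, edgeR adjusted p = 0.425), and in the 6 other libraries -0.079 (SE 0.063, adjusted p = 0.364).

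LATS1, the less abundant of the kinases that merlin activates (ENSG00000131023, chromosome 6, 149658153 to 149718256), measured 65.8, 64.7, 54.4 and 62.0 CPM in DMSO and 73.0, 55.1, 83.5 and 72.3 CPM in DPT. The lowest value of each group came from the pair, DMSO replicate 3 and DPT replicate 2, and without these 2 libraries the groups did not overlap. With all 8 libraries the log2 fold change was 0.20 (SE 0.12, edgeR adjusted p = 0.326). Once the model held a term for the pair, LATS1 rose by 0.19 (SE 0.062, adjusted p = 0.0236), 1.14-fold, and in the 6 other libraries by 0.25 (SE 0.063, adjusted p = 0.00531), 1.19-fold. Within the pair, DPT replicate 2 differed from DMSO replicate 3 by 0.017 on the log2 scale, and the pair as a whole lay below the other libraries (-0.35).

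LATS2, its paralogue (ENSG00000150457, chromosome 13, 20973032 to 21061547), measured 110, 113, 97.8 and 115 CPM in DMSO and 122, 107, 131 and 129 CPM in DPT. The pattern was that of LATS1, with DMSO replicate 3 and DPT replicate 2 lowest in their groups and no overlap without them. With all 8 libraries the log2 fold change was 0.17 (SE 0.081, 95% confidence interval -0.012 to 0.35, edgeR adjusted p = 0.217). LATS2 rose by 0.17 with the term (SE 0.044, adjusted p = 0.00687), 1.12-fold, and by 0.18 in the 6 other libraries (SE 0.048, adjusted p = 0.00735), 1.13-fold. Within the pair the difference was 0.14, in the same direction.

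Whether the 2 kinases were called thus depended on how the pair was handled. Leaving out DPT replicate 2 alone gave a called rise of 0.31 for LATS1 (adjusted p = 0.0351) and of 0.23 for LATS2 (adjusted p = 0.0484). Leaving out any other single library gave no call. In the 6 other libraries 22.8% of all tested genes had DPT values wholly above DMSO, and 45.5% had groups apart in either direction, so separation there is common. LATS2 made up 65.0, 65.3, 68.0 and 67.2% of the summed FPKM of LATS1 and LATS2 in DMSO and 65.6, 68.8, 62.9 and 64.8% in DPT. The balance of the kinases did not differ beyond the spread (66.4% ± 1.47 against 65.5% ± 2.46, SD, n = 4, two-sided exact permutation test, p = 0.6, above the smallest p that 4 against 4 can give).

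BAP1 (ENSG00000163930, chromosome 3, 52401013 to 52410350) measured 66.3, 63.0, 57.7 and 66.1 CPM in DMSO and 61.7, 71.0, 57.6 and 62.1 CPM in DPT. The lowest DMSO value and the highest DPT value were the pair's, and the means of 63.3 ± 3.98 and 63.1 ± 5.64 CPM (SD, n = 4) were nearly equal. The log2 fold change was -0.0042 (SE 0.08, edgeR adjusted p = 0.979), with a 95% confidence interval of -11.9% to 12.9%. In the 6 other libraries every DPT value lay below every DMSO value, at -0.11 (adjusted p = 0.168), while DPT replicate 2 lay 0.3 above DMSO replicate 3. The sign thus differed between the pair and the rest, and no fit called a change of this deubiquitinase.

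PBRM1 (ENSG00000163939, chromosome 3, 52545352 to 52685917) measured 52.5, 51.2, 61.0 and 50 CPM in DMSO and 57.5, 53.5, 53.8 and 52.0 CPM in DPT. DMSO replicate 3 was the highest library of all, and the other 7 lay within 50 to 57.5 CPM. Its log2 fold change was 0.013 (SE 0.077, edgeR adjusted p = 0.936), with an interval of -10.5% to 13.7%. The values carry an added doubt: PBRM1 shares 4762 bases of its span with GNL3 and 33886 with SMIM4, both on the opposite strand, and no source used here says whether counting used the strand.

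SETD2 (ENSG00000181555, chromosome 3, 47016429 to 47163967) measured 91.2, 89.7, 87.1 and 94.3 CPM in DMSO and 94.9, 70.6, 98.5 and 102 CPM in DPT. DMSO varied little, and DPT replicate 2 was far the lowest of the 8 libraries, while the other 3 DPT libraries were the 3 highest of all. The log2 fold change was 0.015 (SE 0.11, edgeR adjusted p = 0.946), with an interval of -14.5% to 19.4%. In the 6 other libraries it was 0.10 (adjusted p = 0.13), and within the pair it was -0.3. As with BAP1, the pair and the other libraries differed in opposite directions, here with DPT higher outside the pair.

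**Figure D3:**
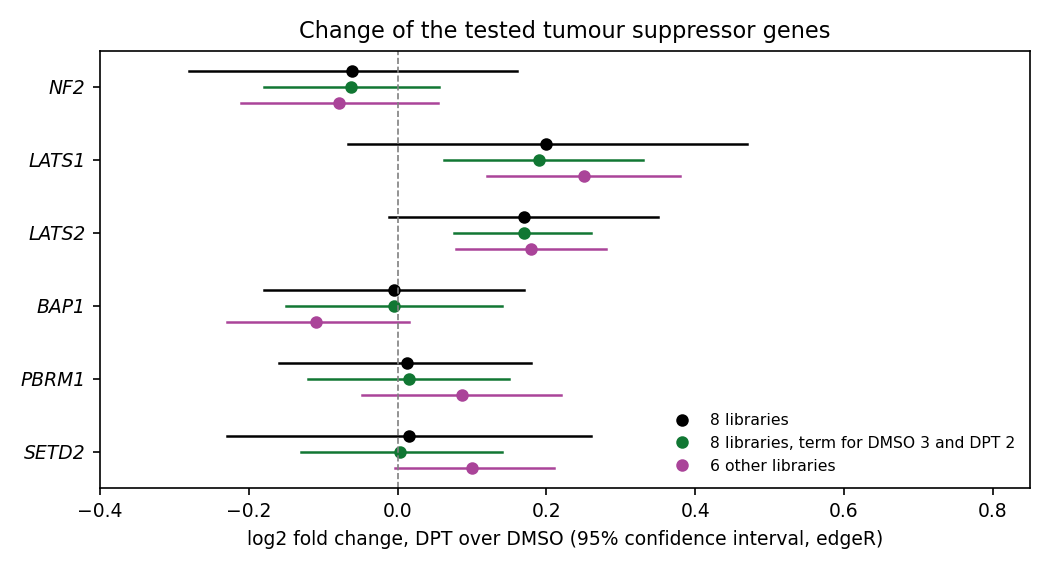
Log2 fold change of DPT over DMSO with its 95% confidence interval (horizontal axis) for the 6 tested tumour suppressors, from edgeR with all 8 libraries (black), with a term for DMSO replicate 3 and DPT replicate 2 (green) and from the 6 other libraries (purple). The intervals of LATS1 and LATS2 reach 0 with all 8 libraries and lie above it in the other 2 fits, and those of NF2, BAP1, PBRM1 and SETD2 include 0 in all 3.

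On 3p, BAP1 ends 135 kb before PBRM1 starts, and SETD2 lies 5.24 Mb away. Around these genes 34 rows of the table were read, of which 28 were tested and 1 was at 0 in every library. On 9p from MLLT3 to LRRC19, 8 of 32 rows were tested, and 15 of the 32 were interferon genes other than IFNB1. The shorter stretch between KLHL9 and TUSC1, with 11 of 13 rows at 0, was bounded by tested genes and is not comparable with the 3p rows. KLHL18 near SETD2 rose by 0.49 log2 (adjusted p = 0.0141), ALAS1, the first enzyme of haem synthesis, by 0.39 (adjusted p = 0.00592) and GNL3, a nucleolar GTPase, by 0.34 (adjusted p = 0.00812). NISCH fell by 0.36 (adjusted p = 0.0092). GNL3 went from 81.9 ± 2.1 to 103 ± 5.32 CPM (SD, n = 4) while PBRM1, which it overlaps, went from 53.7 ± 4.95 to 54.2 ± 2.31 CPM. In the list of 26 tested genes around these members 3 were higher and 1 lower, 4 and 4 with the pair term and 4 and 3 in the 6 libraries. Of all tested genes, 11.0%, 34.0% and 34.1% were called in either direction in these 3 fits. The call of KLHL18 was lost without DMSO replicate 1, DMSO replicate 4 or DPT replicate 4 (adjusted p 0.0504 to 0.0521).

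The 6 expressed members did not vary as 1 group. Over the 8 libraries, which share the treatment and the pair, LATS1 and LATS2 had the highest Pearson r of log2 CPM (0.91), and SETD2 followed both (0.75 with LATS1 and 0.66 with LATS2). NF2 ran against these 3, at -0.72 with SETD2, -0.68 with LATS1 and -0.7 with LATS2. BAP1 had r = -0.61 with SETD2 and -0.53 with PBRM1. These are descriptions over 8 points, 2 of which are the pair.

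Among all tested genes, those most like LATS1 were AHR, the aryl hydrocarbon receptor (r = 0.987), TASOR2 (0.982) and EIF2B5, a subunit of a translation initiation factor (0.98). LATS2 was most like IL6ST, the shared receptor chain of the IL-6 family (0.985), C11orf68 (0.985) and NDRG1 (0.984). The nearest to SETD2 were the histone demethylase KDM5B (0.976), ZNF829 (0.963) and GCA (0.958). NF2 was nearest to ROGDI (0.984), FAM72D (0.973) and UFC1, an enzyme of UFM1 conjugation (0.945), and FAM72D is uncertain because it has near-identical copies. BAP1 came nearest to the cytokine IL18 (0.927), ANKRD9 (0.913) and SEC22A (0.908), and PBRM1 to DAB2IP (0.966), YDJC (0.952) and PIAS3 (0.924). Each r is over 8 libraries, and none of these 18 genes was called in the 8 libraries (adjusted p from 0.19 to 0.992).

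Genes that work with the 9 members were read in 10 lists. Their 153 distinct tested genes, of which 5 are members, held 9 called higher (5.88%) and 15 called lower (9.8%), beside 5.68% and 5.29% of all tested genes, with a median log2 fold change of -0.022. With the term for the pair 26 were called higher and 41 lower, where the background was 16.9% and 17.0%, and in the 6 other libraries 30 and 39, where it was 17.0% and 17.1%. These shares are the background for each list below.

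In the Hippo pathway, 22 core genes were tested, NF2, LATS1 and LATS2 among them, with 1 higher and 3 lower (median -0.015), and 5 and 4 both with the pair term and in the 6 libraries. STK3, STK4 and SAV1, the MST kinases and their scaffold that act on LATS1 and LATS2, had log2 fold changes of -0.01, -0.054 and -0.062 and were not called in any of these fits. FRMD6, a FERM protein upstream of LATS, rose by 0.52 (adjusted p = 0.0213). AMOT, an angiomotin that holds YAP at junctions, fell from 5.6 ± 1.02 to 2.48 ± 0.359 CPM (SD, n = 4, edgeR adjusted p = 0.00647), AMOTL2 fell by 0.24 (adjusted p = 0.0295) and WWC3 by 0.36 (adjusted p = 0.0315). AMOT kept its call without any 1 library. That of WWC3 was lost without any 1 of the 6 libraries outside the pair (0.0508 to 0.0997), and those of FRMD6 and AMOTL2 without any of these but DPT replicate 1 (0.0556 to 0.0715 and 0.0673 to 0.101).

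Of 8 tested coactivators and TEAD factors, at the output of the Hippo pathway, 0 were higher and 1 lower (median -0.18), against 1 and 4 with the pair term and 2 and 4 in the 6 libraries. Unadjusted, at p under 0.05, 1 was higher and 4 were lower, and DESeq2 gave 0 and 2 after adjustment. YAP1 measured 231 ± 14.1 CPM in DMSO and 230 ± 28.1 in DPT (SD, n = 4, log2 fold change -0.0041, edgeR adjusted p = 0.982). WWTR1, which encodes TAZ, went from 270 ± 23.1 to 229 ± 19.9 CPM and was not called with all 8 libraries (adjusted p = 0.113). It was called lower in the model with the pair term (0.00103) and in the 6 other libraries (0.000857). TEAD1, the DNA-binding partner of both, fell from 510 ± 13.7 to 432 ± 14.3 CPM (adjusted p = 0.0263), a call lost without any 1 of the 6 libraries outside the pair (0.0528 to 0.0921).

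Among 21 tested targets of YAP and TEAD, LATS2 included, 2 were higher and 6 lower (median -0.072), and 6 and 8 both with the pair term and in the 6 libraries. CCN1 and CCN2, the matricellular targets most used as readouts, were not called, at 0.093 and 0.08 (adjusted p = 0.45 and 0.861). GADD45A, a stress response gene, rose from 162 ± 5.4 to 256 ± 24.4 CPM (SD, n = 4, edgeR adjusted p = 0.00133), and the kinase NUAK2 rose by 0.76 (adjusted p = 0.0469), a call that stood in 1 of 8 fits that left out a library, the one without DPT replicate 2 (0.0669 to 0.132 in the others). AJUBA, a LIM protein that binds LATS kinases, CRIM1 and ARHGEF17 fell by 0.62, 0.71 and 0.62 (adjusted p = 0.000483, 0.00245 and 0.00264), and these calls held without any 1 library.

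Of 11 tested partners of BAP1 0 were called with all 8 libraries (median -0.038), 0 higher and 3 lower with the pair term and 1 and 3 in the 6 libraries. ASXL1 and ASXL2, which activate BAP1, had log2 fold changes of -0.17 and 0.0096 (adjusted p = 0.1 and 0.974), HCFC1 of -0.11 and FOXK2 of 0.038. ASXL1 was called lower with the term (adjusted p = 0.00763) and in the 6 libraries (0.038), and the other 3 in no fit. Unadjusted, at p under 0.05, the counts were 0 and 1, and DESeq2 after adjustment gave the same 0 higher and 1 lower.

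Of 20 tested subunits of PBAF and related SWI/SNF complexes, PBRM1 among them, 1 was higher and 2 lower (median -0.007), against 1 and 6 with the pair term and 2 and 4 in the 6 libraries. SMARCC2, a core scaffold, fell from 143 ± 11.9 to 98.7 ± 6.45 CPM (SD, n = 4, edgeR adjusted p = 0.00372). The ATPase SMARCA2 fell by 0.29 (adjusted p = 0.0137), a call lost without DMSO replicate 4 or DPT replicate 3 (0.0502 and 0.0533). BCL7B rose by 0.27 (adjusted p = 0.0246), which was lost without any library outside the pair but DPT replicate 1 (0.0735 to 0.0831). The subunits that mark PBAF beside PBRM1, ARID2 and BRD7, had changes of -0.4 (adjusted p = 0.0508) and -0.074 (adjusted p = 0.496), and SMARCC1, on 3p between SETD2 and BAP1, one of -0.13 (adjusted p = 0.193). ARID2 was called lower once the pair had a term (0.000407) and in the 6 libraries (0.0019), SMARCC1 with the term (0.0499) but not in the 6 libraries (0.116), and BRD7 in neither. Of 19 tested writers, readers and erasers of methylation on lysine 36 of histone H3, SETD2 among them, 0 were called in either direction (median -0.11). This list is not limited to the trimethylation that SETD2 places. The counts higher and lower were 1 and 4 at an unadjusted p under 0.05, 1 and 2 by DESeq2 after adjustment, 1 and 6 with the term, and 2 and 6 in the 6 libraries.

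Downstream of CDKN2A and CDKN2B, CDK4 and CDK6, the kinases that p16 and p15 inhibit, measured 178 ± 14 and 115 ± 5.54 CPM in DMSO. In DPT they measured 175 ± 11.1 and 126 ± 14.4 CPM (SD, n = 4), and neither was called with all 8 libraries. CDK6 was called higher in the 6 other libraries (0.17 log2, adjusted p = 0.0166), though not with the pair term (0.0938), and CDK4 in neither. RB1, their substrate, had a change of -0.15, not called with all 8 libraries (adjusted p = 0.443), and was called lower with the term (0.0129) and in the 6 libraries (0.0118). The other INK4 inhibitors were expressed where CDKN2A and CDKN2B were not: CDKN2C (p18) measured 56.7 ± 16.1 and 39.6 ± 18.0 CPM and CDKN2D (p19) 9.7 ± 1.63 and 10.2 ± 1.88. CDKN2C was higher in the pair than in the other libraries by 0.91 log2, and it was called lower with the term (adjusted p = 0.000142) and in the 6 libraries (2.75e-05) but not with all 8 libraries (0.293). Of 16 tested genes of this list 1 was higher and 1 lower (median -0.048), and 3 and 5 both with the pair term and in the 6 libraries. Cyclin D1 (CCND1) rose by 0.38 (adjusted p = 0.0308), lost without any library outside the pair but DMSO replicate 2 (0.0673 to 0.0836), and E2F2 fell from 16.9 ± 0.863 to 9.81 ± 1.66 CPM (adjusted p = 0.00567).

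MDM2, the ubiquitin ligase that p14ARF restrains, was at 69.0 ± 2.5 CPM with DMSO and 68.9 ± 4.26 CPM with DPT (SD, n = 4) and was not called (edgeR adjusted p = 0.988). CDKN1A, which encodes the kinase inhibitor p21, rose 2.38-fold, from 17.3 ± 3.07 to 41.0 ± 5.98 CPM (adjusted p = 0.00166), and its call held without any 1 library. Of 12 tested genes of the p53 pathway downstream of p14ARF, 1 was higher and 1 lower (median 0.0056). The counts were 2 and 2 both with the pair term and in the 6 libraries.

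Around MTAP, 17 genes of methionine salvage, polyamine synthesis and the PRMT5 complex were tested, with 3 higher and 1 lower (median 0.13). PRMT5, the arginine methyltransferase that methylthioadenosine inhibits, went from 89.7 ± 6.02 to 105 ± 2.29 CPM (SD, n = 4, edgeR adjusted p = 0.0508) and was called higher with the term (0.00301) and in the 6 libraries (0.0149). MAT2A, which makes S-adenosylmethionine, fell by 0.26 (adjusted p = 0.0308), lost without any 1 of the libraries outside the pair (0.0597 to 0.0977). ODC1, the first enzyme of polyamine synthesis, rose from 402 ± 69.2 to 715 ± 109 CPM (adjusted p = 0.00631), and PNP, a purine phosphorylase related to MTAP, from 29.2 ± 1.92 to 50.8 ± 2.02 CPM (adjusted p = 0.000434). RIOK1, a PRMT5 partner, rose by 0.47 (adjusted p = 0.0147), lost when DMSO replicate 1, DMSO replicate 4, DPT replicate 3 or DPT replicate 4 was left out (0.0502 to 0.0537). Of this list 8 genes were called higher and 2 lower, both with the term and in the 6 libraries.

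**Figure D4:**
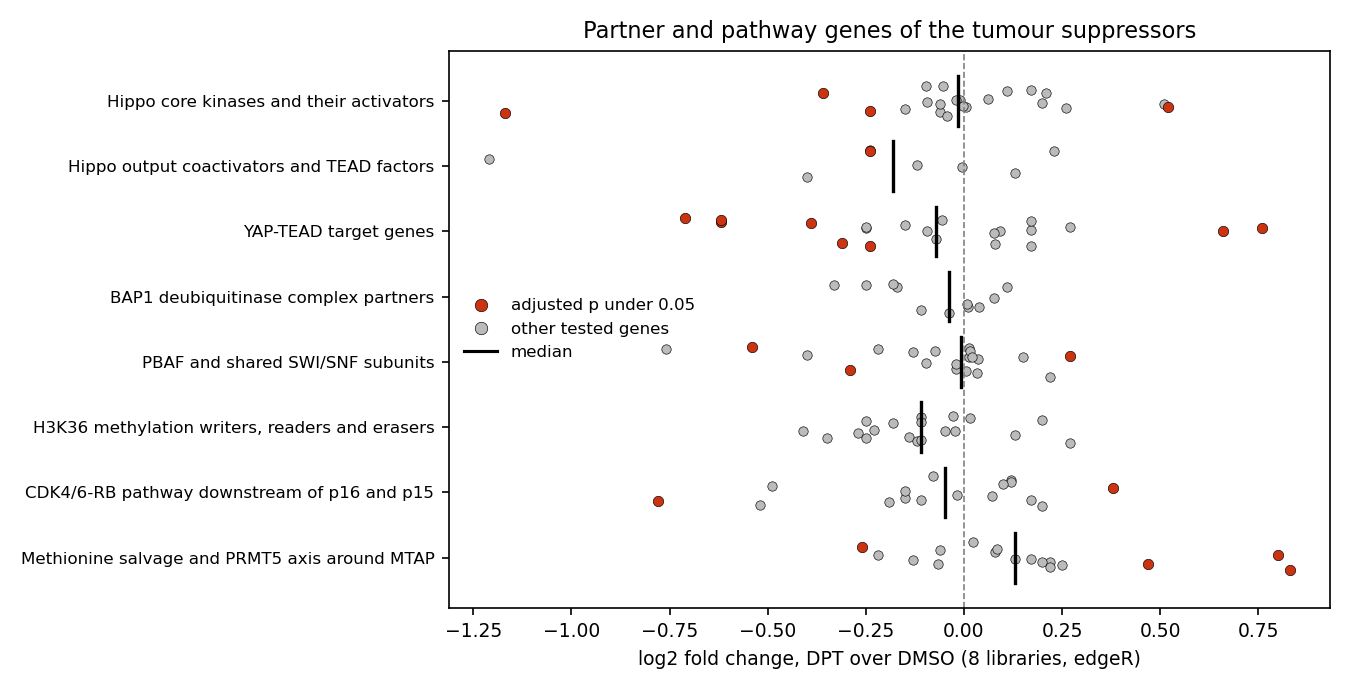
Log2 fold change of DPT over DMSO (horizontal axis, edgeR, 8 libraries) of each tested gene in 8 of the lists around the tumour suppressors, red where the adjusted p was under 0.05, with the list's median as a bar. The medians lie between -0.18 and 0.13, and in the lists of BAP1 partners and of H3K36 methylation no gene was called in this fit.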

How the data were processed

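Polyadenylated RNA of H2452 cells was sequenced in 4 DMSO and 4 DPT libraries. Per the file headers the table holds counts and FPKM for each library. The authors deposited expected counts, estimated numbers of which 10.8% were not whole, and FPKM values that they computed. The submitters' processing notes name hg38, RSEM, HISAT2, DESeq2, StringTie 1.3.1 and fastp 0.18.0, without saying which step each served. Expected counts share out reads between genes of similar sequence.

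Counts were rounded and tested with edgeR 4.0.16 (R 4.3.3) after filterByExpr (minimum count 10, minimum total 15) and TMM scaling, with a treatment term. CPM used TMM-scaled totals. Alternatives were a replicate block, a term for the pair, the 6 other libraries, DESeq2 1.42.0, limma 3.58.1 on FPKM and on counts (voom), other filters and scaling, and leaving out each library. The edgeR step was tested on simulated data. No library was a copy of another: the smallest chi-square per degree of freedom between libraries was 2.65.

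Positions came from GENCODE v29 (GRCh38), matched to 20171 of the table's identifiers. The members, lists and alternatives were chosen with earlier results of these data known. Besides the members, named genes were the 3 higher and 3 lower called genes per list with the smallest adjusted p, a set of pathway genes named whether or not they changed, the 9p neighbours and the 3 genes most like each member. IFNB1, ELAVL2, KLHL9, TUSC1, CDKN2C and CDKN2D were named after their values were seen. Some of the genes so taken are not reported here.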

Additional observations from a re-analysis of the deposited data

How the results depend on the processing

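With all 8 libraries 718 genes were higher and 669 lower. These counts were 2140 and 2156 with the term for the pair, 2158 and 2169 in the 6 other libraries and 171 and 174 with a replicate block. Limma on FPKM gave 336 lower with a pseudocount of 0.1 and 342 with 1, and leaving out each library gave 332 to 1183 higher and 311 to 1108 lower. Members called higher numbered 2 with the term and 2 in the 6 libraries, and 0 to 2 when each library was left out. For the 10 pathway lists together, higher and lower calls numbered 26 and 41 with the term, 30 and 39 in the 6 libraries, 4 and 6 with the block, and 4 to 14 and 7 to 24 without each library. On FPKM, 7 were lower with either pseudocount. The cause of these shifts was not tested.

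Every alternative value of LATS1 and LATS2 (36 of 36) was above 0. Without each library LATS1 ran from 0.11 to 0.31 and LATS2 from 0.12 to 0.23. Of 108 member values 18 changed sign, none of them called and none beyond 0.089. BAP1 was 0.058 and 0.056 on FPKM, NF2 0.089 and 0.085, and SETD2 -0.039 and -0.036. Without each library BAP1 ran from -0.067 to 0.037, SETD2 from -0.041 to 0.12 and PBRM1 from -0.024 to 0.076. Deviations from the group mean in libraries of the same replicate number had r from -0.4 to 0.21. DMSO replicate 3 and DPT replicate 2, at 0.68 with each other, weigh on these values. The check therefore cannot decide whether other replicates were paired, and the labels give no pairing. With the replicate block LATS1 was 0.19 (edgeR adjusted p = 0.485) and LATS2 0.17 (adjusted p = 0.367).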

Other observations

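The deposited count divided by FPKM and by the library total gives the gene length that the estimated counting used in that library. It was looked at after the data were seen. LATS2 had 5546 bases in every library. For NF2 the implied length was 4123, 4622, 4059 and 4235 bases in DMSO and 4017, 3911, 3919 and 3888 in DPT. The groups did not overlap, at 4260 ± 252 against 3934 ± 56.9 bases (SD, n = 4). The difference of -326 bases (-7.65%) had a two-sided exact permutation p of 0.029, the smallest that 4 against 4 can give, and 0.143 after Benjamini-Hochberg adjustment over the 5 members tested. Among 9381 genes with at least 100 counts in every library, 3.67% had groups that did not overlap in this length. Without each library the NF2 difference ran from -393 to -205 bases (exact permutation p = 0.0571, the smallest possible there), and in the 6 libraries outside the pair it was -385 (exact permutation p = 0.1). PBRM1 had the most variable length, with a coefficient of variation of 11.0% against a median of 2.88% over those genes, and no difference by treatment beyond the spread (4721 ± 548 and 4862 ± 527 bases, SD, n = 4, exact permutation p = 0.657). SETD2 measured 6990 ± 137 and 7417 ± 619 bases (SD, n = 4, exact permutation p = 0.286).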
